A study of Mus musculus with 31 samples.

Results

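Rn45s, the 45S precursor of ribosomal RNA, and 9 genes of its transcription and of the nucleolus were followed across single mouse 2-cell embryos. The genes were the RNA polymerase I (Pol I) subunits Polr1a, Polr1b, Polr1c and Polr1e, the initiation factors Rrn3 and Ubtf, and the nucleolar proteins Ncl, Fbl and Npm1. They were taken by name from the deposited count table, where these 10 genes stood among 20544, and all 10 passed the filter on low counts. The study asked whether embryos made with SER sperm differ in transcription from embryos made with control sperm. SER, sperm energy restriction and recovery, removes glucose and pyruvate from sperm until they stop moving, here after 15 to 45 min, and then gives both nutrients back. Control sperm came from the other cauda epididymidis and stayed in complete medium.

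The groups held 16 control-generated and 15 SER-generated embryos, all wild type. Sperm came from C57BL/6J males aged 12 to 14 weeks, and oocytes from superovulated CD1 females aged 8 to 10 weeks. Sperm and oocytes of both groups were co-cultured for 4 h, and single embryos were collected 32 h after insemination. The labels number the embryos but do not give the male, the female or the batch behind each one, so p-values measure the spread between embryos, which may share parents or a processing day.

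Pol I transcribes the tandem ribosomal DNA repeats in the nucleolus. Rrn3 (TIF-IA) joins the polymerase to the promoter complex, Ubtf binds along the repeats, and the long precursor is then methylated, cut and packed with ribosomal proteins. The mouse oocyte shuts this transcription down as it matures, and the embryo starts it again during the 2-cell stage, when its own genome is switched on and stored oocyte messages are cleared. The libraries were made by Smart-seq3, which primes on poly(A) tails. Ribosomal RNA precursors mostly lack such tails. The counts of Rn45s are therefore the part that was captured and do not measure how much precursor an embryo held. The positions of its reads are not given, so the precursor was not told apart from the ribosomal RNAs cut from it.

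Total counts were 532945 to 2085222 per control-generated embryo (median 955806.5) and 642321 to 3088396 per SER-generated embryo (median 1375557). No pair of embryos had identical counts. Of 25 genes of the 2-cell transcription burst (Zscan4, Tcstv and Usp17l families and others), 19 were in the table and 1, Tdpoz5, was at 0 in every embryo. Their summed level ran from 48.3 to 2733 CPM (an embryo's count of a gene scaled to the same library total for all) in control-generated and from 153.8 to 2228 CPM in SER-generated embryos. The lowest embryo of each group stood apart. Control replicate 4 had 48.3 CPM where the next control embryo had 614.0, and SER replicate 15 had 153.8 CPM where the next SER embryo had 571.4. The same embryos had the highest summed level of 18 oocyte transcripts (of which Oog1 was at 0 throughout) in their groups, 19209 CPM and 18680 CPM. Markers of cumulus cells summed to 3704 CPM in control replicate 5 and to at most 158.0 CPM elsewhere. None of these embryos was removed from the main results.

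The promoters of 3 members are shown because their variation over all 31 embryos lay at opposite ends. Polr1c and Polr1e, subunits of the polymerase, had the largest SDs of log2 CPM of the 10 genes over 31 embryos (1.70 and 1.36) and Rrn3, the initiation factor, the smallest (0.39). The value of Polr1c rests on control replicate 4 and SER replicate 15: its SDs were 1.64 within control-generated and 1.77 within SER-generated embryos, and 0.77 and 0.55 without them, where those of Polr1e were 1.06 and 0.98 and those of Rrn3 0.34 and 0.46. Each window runs from 250 bases before to 50 bases after the start in RefSeq (GRCm38.p6), 5′ to 3′ on the gene's strand: Polr1c chr17:46247996-46248295 (minus strand), Polr1e chr4:45018359-45018658 (plus strand) and Rrn3 chr16:13780449-13780748 (plus strand). Capitals mark matches, on either strand, to any of 6 motifs: the E-box CACGTG, the GC box GGGCGG, the ETS-type CCGGAAG, the CCAAT box, the TATA box written TATAAA, and the nuclear receptor core AAGGTCA.
Polr1c: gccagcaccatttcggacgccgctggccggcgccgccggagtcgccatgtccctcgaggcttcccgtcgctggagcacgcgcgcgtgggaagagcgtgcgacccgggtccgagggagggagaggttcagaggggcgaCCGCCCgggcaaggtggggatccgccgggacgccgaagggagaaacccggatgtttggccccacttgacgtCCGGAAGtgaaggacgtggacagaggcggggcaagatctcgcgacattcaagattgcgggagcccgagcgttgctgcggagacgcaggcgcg
Polr1e: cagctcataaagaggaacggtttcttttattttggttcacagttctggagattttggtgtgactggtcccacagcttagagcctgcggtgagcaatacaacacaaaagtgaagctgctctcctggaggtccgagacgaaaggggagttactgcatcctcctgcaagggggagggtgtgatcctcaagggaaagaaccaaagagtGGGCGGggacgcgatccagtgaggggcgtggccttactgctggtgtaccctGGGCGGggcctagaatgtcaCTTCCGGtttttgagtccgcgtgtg
Rrn3: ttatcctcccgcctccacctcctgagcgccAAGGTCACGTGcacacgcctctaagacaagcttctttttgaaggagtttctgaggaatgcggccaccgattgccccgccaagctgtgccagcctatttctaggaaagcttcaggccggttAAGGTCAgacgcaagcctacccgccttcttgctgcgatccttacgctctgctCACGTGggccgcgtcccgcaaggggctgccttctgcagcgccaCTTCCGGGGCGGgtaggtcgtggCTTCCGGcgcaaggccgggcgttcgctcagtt
The Rrn3 window held matches to 4 of the 6 motifs: 2 E-boxes, 1 of which overlaps a receptor core, 1 GC box that overlaps an ETS-type match, 2 ETS-type matches and 2 receptor cores. The Polr1c window held 1 GC box and 1 ETS-type match, and the Polr1e window 2 GC boxes and 1 ETS-type match. Over 32851 RefSeq windows of this length, 7.15% held an E-box, 35.7% a GC box, 8.86% the ETS-type letters, 37.4% CCAAT, 13.6% TATAAA and 4.72% the receptor core. Windows were found for 7 of the 10 genes. Polr1a held 1 CCAAT, Polr1b held 1 GC box, Ncl held 3 GC boxes, and the 6 windows of Ubtf held up to 8 GC boxes. These matches are a description of letters and show no binding.

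Rn45s was the most abundant gene in 15 of 31 embryos, 6 of 16 control-generated and 9 of 15 SER-generated. In control-generated embryos it ran from 8853 to 48815 CPM with a median of 15895. In SER-generated embryos it ran from 3300 to 68744 CPM with a median of 17510. These levels were 0.330% to 6.87% of an embryo's counts, a 20.8-fold range, and the medians of the groups lay close together while the ranges did not. Control replicate 4 was alone at the top of its group, since the next control embryo had 21949 CPM. Of the SER-generated embryos, 6 exceeded that second control value, 4 lay under the lowest control embryo and 5 lay between. The 6 had 63372 CPM (replicate 1), 30419 (replicate 2), 62943 (replicate 3), 54946 (replicate 5), 68744 (replicate 6) and 32167 (replicate 7). The 4 at the bottom had 4481 CPM (replicate 12), 4222 (replicate 13), 4974 (replicate 14) and 3300 (replicate 15).

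The groups did not differ in mean beyond the spread between embryos. The mean of Rn45s was 17380 ± 9660 CPM (SD, n = 16) in control-generated and 26771 ± 24058 CPM (SD, n = 15) in SER-generated embryos. The log2 fold change, SER minus control, was 0.60 (SE 0.38, 95% interval -0.18 to 1.38, adjusted p = 0.924 in edgeR's quasi-likelihood test). A mean of log2 CPM, which gives the highest embryos less weight, differed by 0.07 (permutation p = 0.866). The fold change was 0.89 without control replicate 4 and SER replicate 15 (adjusted p = 0.457), and it was -0.088 with 5 surrogate variables in the fit.

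The spread of Rn45s was wider among SER-generated embryos. The SD of its log2 CPM was 0.66 in control-generated and 1.56 in SER-generated embryos, and a permutation test of the distances from the group medians gave p = 0.00199. Without control replicate 4 and SER replicate 15 the SDs were 0.44 and 1.49 (permutation p = 0.00058). The test was chosen after the values had been seen, and it treats the embryos as exchangeable although their batches are not given. The 4 SER-generated embryos lowest in Rn45s, replicates 12 to 15, had total counts of 2158512 to 2567720, where the SER median was 1375557 and 1 SER-generated embryo was deeper. The part of depth in the spread was not tested. Of the other 9 genes, none had p under 0.05 in the same test (permutation p from 0.189 to 0.790). Over all 8571 genes tested, the SD ratio of SER to control had a median of 0.97, and 34 genes (0.397%) had a ratio above the 2.37 of Rn45s.

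**Figure D1:**
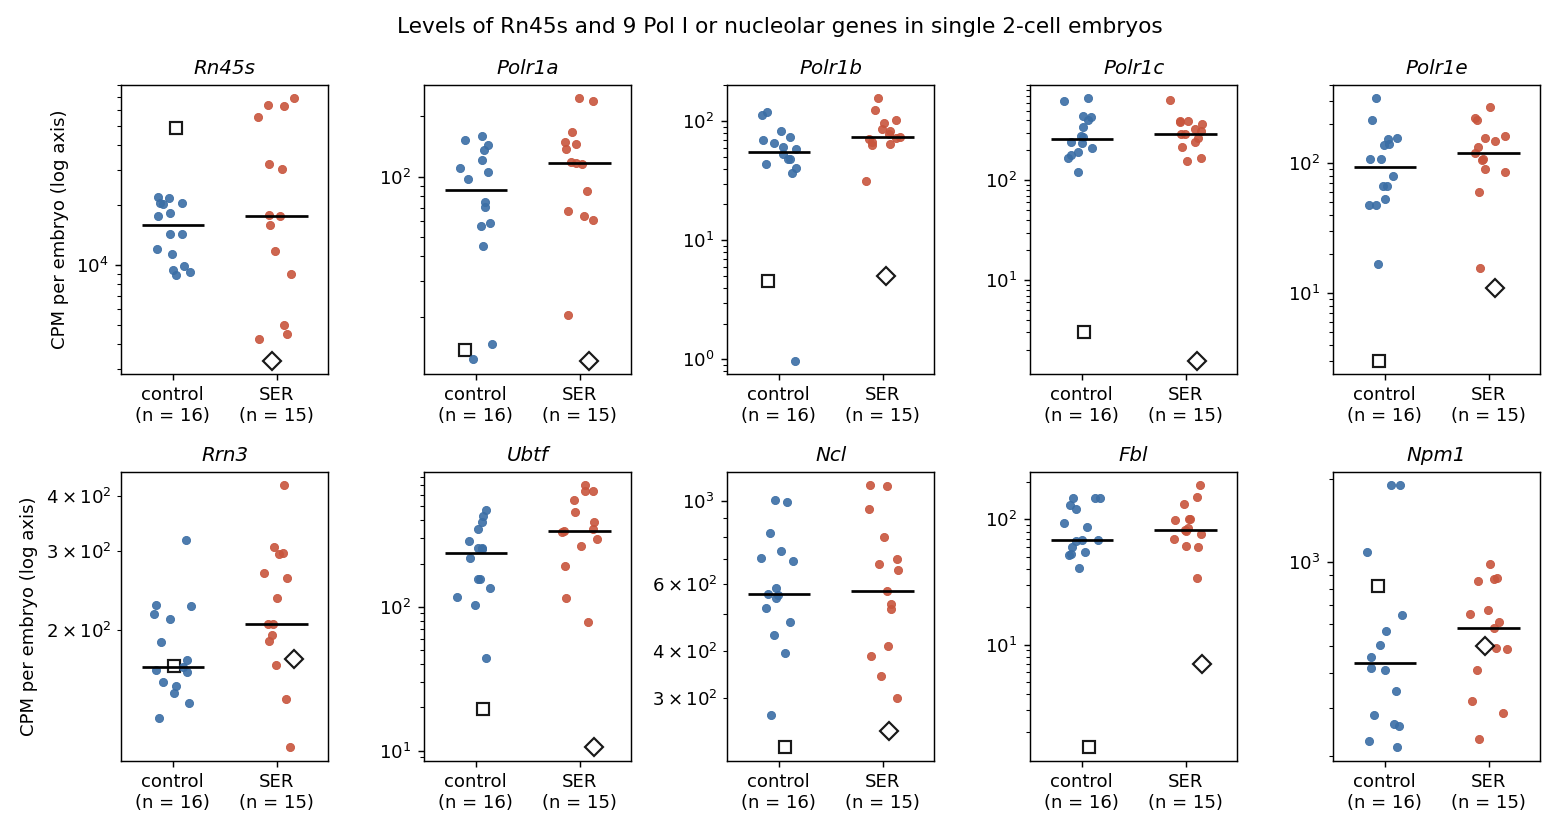
CPM of each gene in each embryo, on log axes, for 16 control-generated (blue) and 15 SER-generated (red) embryos, with group medians as bars and control replicate 4 (open square) and SER replicate 15 (open diamond) set apart. Rn45s covered 3300 to 68744 CPM among SER-generated embryos, and Polr1c was at 3.02 and 1.56 CPM in the open symbols and at 122.3 CPM or more elsewhere.

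Among the catalytic and core subunits, Polr1a, the largest subunit (chr6:71909053-71984935, plus strand, GRCm38), ran from 12.3 to 160.2 CPM in control-generated embryos (median 86.1) and from 12.1 to 246.3 CPM in SER-generated embryos (median 116.3). Polr1b, the second largest subunit, ran from 0.975 to 119.7 CPM (median 55.7) and from 5.06 to 156.6 CPM (median 73.5). The ranges overlapped in both genes, with 3 SER-generated embryos above every control embryo for Polr1a and 2 for Polr1b. The lowest control value of Polr1b, in control replicate 3, was a single count, for which the exact Poisson interval is 0.0247 to 5.43 CPM. The log2 fold changes were 0.42 (SE 0.35, adjusted p = 0.936, edgeR) for Polr1a and 0.43 (SE 0.35, adjusted p = 0.936, edgeR) for Polr1b.

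Polr1c is a subunit that Pol I shares with RNA polymerase III. It ran from 3.02 to 667.9 CPM in control-generated embryos (median 259.1) and from 1.56 to 633.0 CPM in SER-generated embryos (median 293.9). The lowest embryo of each group was far below the rest: control replicate 4 had 2 counts (exact Poisson interval 0.365 to 10.9 CPM) and SER replicate 15 had 4 counts (0.424 to 3.99 CPM), while the next lowest embryos had 122.3 and 155.7 CPM. The log2 fold change was -0.08 (SE 0.40, adjusted p = 0.992, edgeR). Polr1e, a subunit of the polymerase's own initiation subcomplex, ran from 3.02 to 318.4 CPM (median 93.9) and from 10.9 to 270.3 CPM (median 120.0). The same embryos were lowest, at 3.02 and 10.9 CPM, but the next lowest, at 16.9 and 15.6 CPM, were near them. For Polr1e the log2 fold change came to 0.18 (SE 0.39, edgeR's adjusted p = 0.979).

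Of the initiation factors, Rrn3 varied least. It ran from 126.8 to 317.4 CPM in control-generated embryos (median 165.5) and from 109.1 to 422.7 CPM in SER-generated embryos (median 205.9), a 3.87-fold range over all 31. Control replicate 4, at 166.0 CPM, and SER replicate 15, at 172.5 CPM, were inside this range and below the median of all 31, 189.0 CPM. The SD of its log2 CPM was 0.39, and 0.898% of the 8571 tested genes had a smaller one, where the median gene had 1.05. Its mean log2 CPM was 7.66, where the median of the tested genes was 5.46, and the part of level in this share was not tested. SER-generated embryos were above the control median in 13 of 15 cases, and the log2 fold change was 0.30 (SE 0.17, adjusted p = 0.891, edgeR).

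Ubtf varied far more than Rrn3 over the 31 embryos. The SD of its log2 CPM was 1.31, and 71.6% of the tested genes had a smaller one. It ran from 19.6 to 475.1 CPM (median 236.1) in control-generated and from 10.5 to 706.3 CPM (median 336.2) in SER-generated embryos. Both ends of the SER range lay outside the control range, with 4 SER-generated embryos above every control embryo and 1 below. The log2 fold change was 0.66 (SE 0.36, 95% interval -0.071 to 1.40, adjusted p = 0.869, edgeR).

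Of the nucleolar proteins, Ncl (nucleolin) ran from 221.8 to 1003 CPM (median 565.3) in control-generated and from 245.0 to 1102 CPM (median 574.9) in SER-generated embryos, and its log2 fold change stood at 0.02 (SE 0.23, edgeR's adjusted p = 0.995). Fbl, the methyltransferase of box C/D small nucleolar particles, ran from 1.51 to 149.5 CPM (median 68.5) and from 7.01 to 189.0 CPM (median 81.6), and its log2 fold change stood at 0.08 (SE 0.33, edgeR's adjusted p = 0.987). Npm1 (nucleophosmin), a chaperone of ribosome assembly, ran from 215.4 to 1903 CPM (median 435.8) and from 231.7 to 987.6 CPM (median 582.0). The mean of Npm1 was lower in SER-generated embryos, 588.7 ± 232.4 against 643.6 ± 543.5 CPM (SD), although 11 of 15 were above the control median, and the log2 fold change was -0.24 (SE 0.33, adjusted p = 0.968, edgeR). Control replicates 1 and 3, at 1898 and 1903 CPM, were above every other embryo in Npm1, and the fold change was 0.0067 without replicate 3.

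None of the 10 genes passed the threshold of adjusted p under 0.1, and neither did any of the 8571 genes tested (0%, edgeR). At an unadjusted p under 0.05, edgeR counted 491 genes (5.73%) over the table and 0 of the 10. DESeq2 called 49 of 8571 genes and 0 of the 10. The study, with DESeq2 after a batch correction that could not be made here, did report differentially expressed genes at the same threshold. Limma voom with sample quality weights called 848 (9.89%) and 1 of the 10, which was Rrn3 (log2 fold change 0.48, adjusted p = 0.0497). Over 46 alternative settings the adjusted p of Rrn3 ran from 0.0497 to 1.000. The estimate was higher in SER-generated embryos for 8 of the 10 genes and lower for Polr1c and Npm1, with a median of 0.24 where the median of all tested genes was 0.02. The 95% interval of every member included 0.

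**Figure D2:**
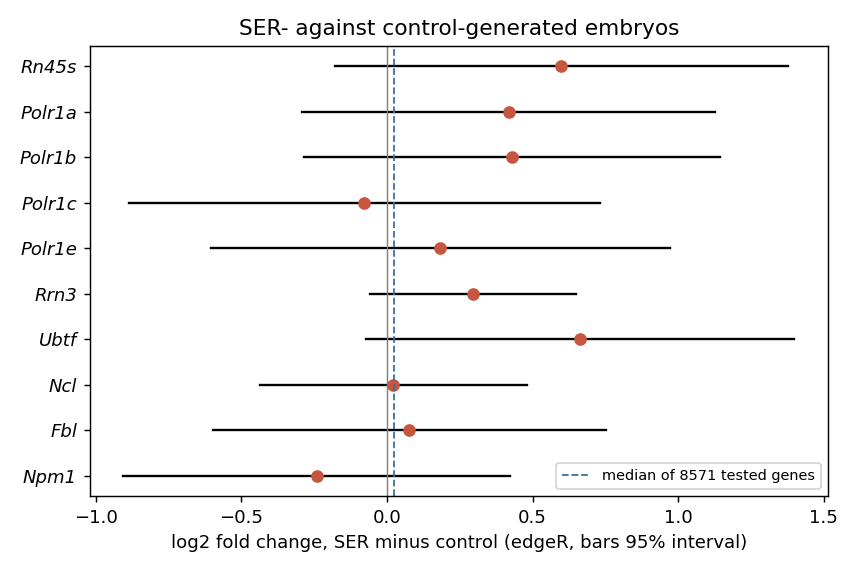
Log2 fold change of each gene, SER minus control, with its 95% interval from edgeR, and the median of all 8571 tested genes as a dashed line. Estimates ran from -0.24 (Npm1) to 0.66 (Ubtf), and each interval crossed 0.

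Per kilobase of exon (GENCODE vM21), the order of median levels over all 31 embryos was Npm1 (187.6 CPM per kb), Polr1c (120.9), Ncl (55.7), Rrn3 (43.8), Ubtf (40.2), Polr1e (27.8), Fbl (19.1), Polr1b (11.5) and Polr1a (8.92). The length was the union of all annotated exons of a gene, over all its transcripts. It was 2665 bases for Npm1, 2278 for Polr1c, 10188 for Ncl, 4209 for Fbl and 11871 for Polr1a. Which transcripts the embryos held is not known, and the part of these lengths in the order was not tested. Every step between neighbours was smaller than the SD of the higher gene over embryos. The higher gene exceeded the lower in 20 to 26 of 31 embryos, with 20 for Rrn3 over Ubtf and for Polr1b over Polr1a, and 26 for Polr1c over Ncl and for Fbl over Polr1b. The genes lie, in GRCm38, with Polr1b at chr2:129100995-129126594, Polr1c at chr17:46243920-46248054, Polr1e at chr4:45018583-45036565, Rrn3 at chr16:13780708-13814839, Ubtf at chr11:102304560-102319742, Ncl at chr1:86344719-86359400, Fbl at chr7:28169710-28179269 and Npm1 at chr11:33152287-33163206. Rn45s was not matched in this annotation and was left out of the order.

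Control replicate 4 and SER replicate 15 separated the 10 genes. Control replicate 4 was among the 2 lowest embryos of 31 for 6 of them (Polr1b, Polr1c, Polr1e, Ubtf, Ncl and Fbl), where this held for 19.1% of all tested genes. SER replicate 15 was among the 2 lowest for 7 (Rn45s, Polr1a, Polr1c, Polr1e, Ubtf, Ncl and Fbl), against 19.0% of all tested genes. Rrn3 and Npm1 were in neither count, and Npm1 was at 819.3 and 500.1 CPM in these embryos. Rn45s took opposite ends: control replicate 4 had the highest control value, 48815 CPM, and SER replicate 15 the lowest value of all, 3300 CPM, although Polr1c was near 0 in both. The same counts were taken for the other lists. A gene was counted only where no other embryo had the same CPM, so genes at 0 in both embryos were left out. An example is the burst gene Usp17lb, at 0 in both and at 125.6 CPM or more in the others. The counts of the lists and the shares over all tested genes are therefore lower bounds. Control replicate 4 was among the 2 lowest for 10 of 15 box C/D and H/ACA particle proteins, 28 of 55 genes of 40S assembly, 27 of 57 of 60S assembly, 6 of 8 Pol II-specific subunits and 0 of 16 oocyte transcripts. For SER replicate 15 the same counts were 9 of 15, 21 of 55, 17 of 57, 3 of 8 and 1 of 16. Control replicate 4 and SER replicate 15 were also among the 2 lowest for 7 and 9 of 17 further Pol I genes, 5 and 4 of 16 regulators of ribosomal DNA, 8 and 6 of 22 exonucleases and exosome genes, 8 and 5 of 15 other nucleolar proteins, 8 and 8 of 21 Pol III-specific genes, 0 and 2 of 6 other RNA genes, and 9 and 4 of 16 2-cell burst genes.

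**Figure D3:**
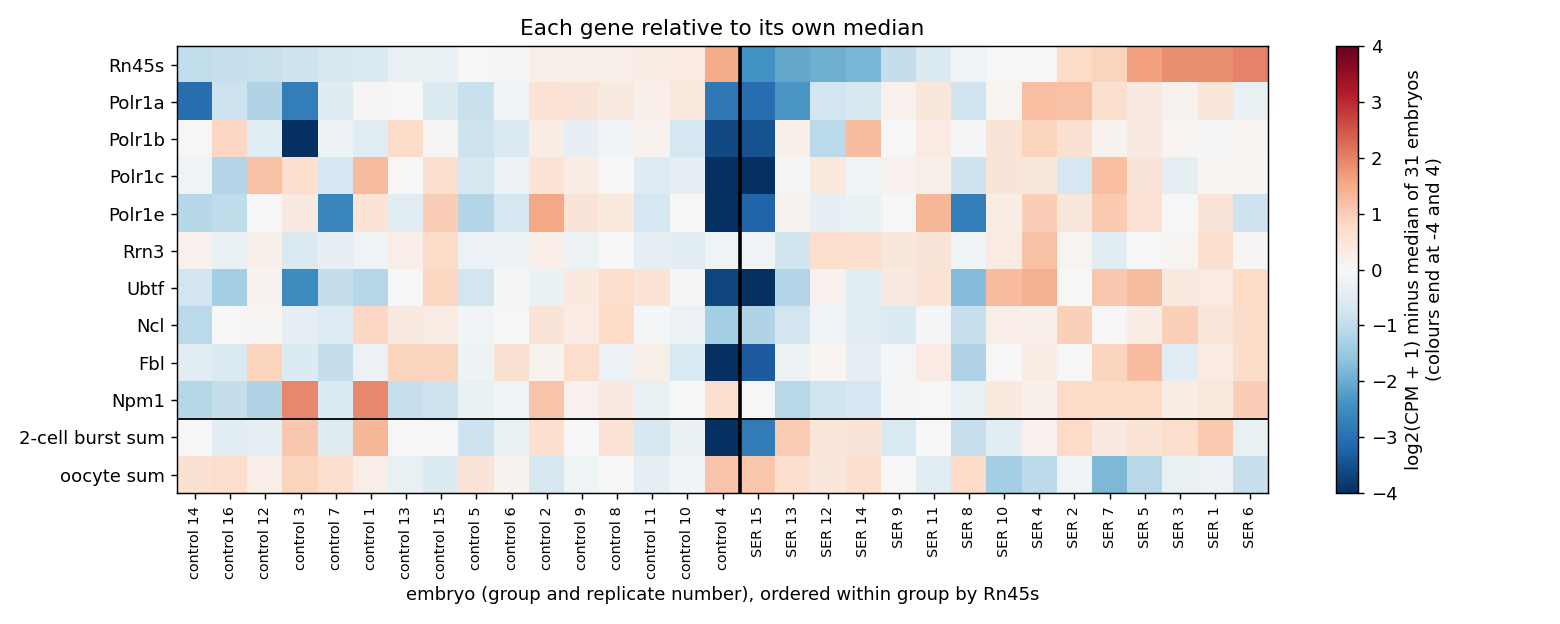
Log2(CPM + 1) of each gene minus its median over 31 embryos, with embryos ordered by Rn45s within each group and the summed 2-cell burst and oocyte transcripts below. Control 4 and SER 15, side by side at the centre, are deep blue in Polr1b, Polr1c, Polr1e, Ubtf, Fbl and the burst sum, near white in Rrn3, and opposite in Rn45s.

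Across embryos, Rn45s was compared with the 9 other genes and 4 measures of the library, on log2 CPM with each group's mean removed. Of these 13 relations, 4 had an adjusted p under 0.05. Rn45s was higher in embryos with more Npm1 (Pearson r = 0.51, permutation p = 0.00032, adjusted p = 0.00416, Spearman rho = 0.67 with permutation p = 2e-05) and more Ncl (r = 0.52, permutation p = 0.00454, adjusted p = 0.0197, rho = 0.56 with p = 0.00179). Without the 2 embryos farthest out on Npm1 and on Ncl, r was 0.75 and 0.74. Rn45s was also higher in embryos with more detected genes (r = 0.50, permutation p = 0.00167, adjusted p = 0.0109, rho = 0.60 with p = 0.00037), and r was 0.53 without the 2 farthest. The relation with Polr1a (r = 0.45, permutation p = 0.0106, adjusted p = 0.0344, rho = 0.57 with p = 0.00125) no longer passed on Pearson's r without the 2 embryos farthest out on Polr1a, SER replicate 15 and control replicate 14 (r = 0.32, adjusted permutation p = 0.160). It was 0.53 without control replicate 4 and SER replicate 15.

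The relations were also computed within each group. Within SER-generated embryos, 6 of 13 passed, including Ncl (r = 0.83, adjusted permutation p = 0.00149) and Npm1 (r = 0.82, adjusted permutation p = 0.00149). Within control-generated embryos none passed, and r was -0.16 for Ncl (adjusted permutation p = 0.641) and 0.39 for Npm1 (adjusted permutation p = 0.329). Without the 2 control embryos farthest out on each gene, 2 of the 13 passed within control, Npm1 (r = 0.83, adjusted permutation p = 0.0013) and Polr1a (r = 0.68, adjusted permutation p = 0.041), and r was 0.47 for Ncl. Without the 2 farthest SER-generated embryos 2 of 13 passed there, Ncl (r = 0.87) and Npm1 (r = 0.76). The difference between the groups was not tested. Rn45s had little relation with Polr1c (r = 0.08), Polr1e (0.08), Polr1b (0.09) or Rrn3 (-0.0035), none of which passed (adjusted permutation p from 0.816 to 0.987). Its r with log2 total count was -0.36 (adjusted permutation p = 0.168), and the part of the library in these relations was not tested further.

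The genes whose pattern over the 31 embryos was most like that of Rn45s were chosen by Pearson r on the same values, and are a description with no test. They were Hsp90ab1 (r = 0.83, a cytosolic chaperone), Hnrnpc (0.81, an RNA-binding protein of nascent transcripts), Cby1 (0.81), Ubxn4 (0.77) and Hsp90aa1 (0.76, the inducible cytosolic chaperone). The least like were Actr3 (-0.80, a subunit of the actin-nucleating Arp2/3 complex), Bmp5 (-0.79, a secreted ligand), Dcaf12 (-0.78), Gna14 (-0.78) and Zc3h14 (-0.76). Each of these kept its sign within both groups, and for Hsp90ab1 r was 0.69 in control-generated and 0.94 in SER-generated embryos. Of the coding members, Ncl ranked 283 of 8570 from the top, Npm1 312, Polr1a 599 and Rrn3 4688. All points share a library with Rn45s, whose counts are up to 6.87% of it.

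Each of the 9 coding members was compared with the mean log2 CPM of the 2-cell burst genes and of the oocyte transcripts, 18 relations that were added after the data had been seen. With all 31 embryos 14 had an adjusted p under 0.05, and without control replicate 4 and SER replicate 15, 7 had. The share of all tested genes with such relations is not given here, so these counts do not set the members apart from other genes. Ubtf was lower where oocyte transcripts were higher, with r = -0.89 over 31 embryos (adjusted permutation p = 6e-05, rho = -0.86) and -0.82 over 29 (adjusted permutation p = 0.00018). It held within control-generated (r = -0.93, adjusted permutation p = 0.00018) and SER-generated embryos (r = -0.87, adjusted permutation p = 0.00018). Fbl had r = -0.78 (adjusted permutation p = 6e-05, rho = -0.69) and -0.65 over 29 embryos (adjusted permutation p = 0.0018). Polr1a (r = -0.66), Polr1b (-0.63), Polr1c (-0.68), Polr1e (-0.60) and Ncl (-0.40) also fell with oocyte transcripts over 31 embryos. Their adjusted permutation p ran from 0.00043 to 0.042. Over 29 embryos they were -0.47, -0.36, -0.29, -0.31 and -0.15, and of these only Polr1a passed (adjusted permutation p = 0.034). Npm1 had r = 0.15 over 31 (adjusted permutation p = 0.459).

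Polr1e followed the burst genes, with r = 0.81 (adjusted permutation p = 6e-05, rho = 0.63) and 0.59 over 29 embryos (adjusted permutation p = 0.0042). Polr1c had r = 0.84 with the burst genes, but the 2 embryos apart carried most of it, and r was 0.46 over 29 (adjusted permutation p = 0.0353). Ncl had r = 0.62 with the burst genes over 31 embryos (adjusted permutation p = 0.00063) and 0.47 over 29 (adjusted permutation p = 0.0353). Npm1 had r = 0.16 over 31 (adjusted permutation p = 0.459) and 0.51 over 29 (adjusted permutation p = 0.0185), and 0.036 within SER-generated embryos. Fbl had r = 0.76 with them over 31 embryos and 0.19 over 29 (adjusted permutation p = 0.521). Rrn3 had r = 0.02 with the burst genes and -0.10 with the oocyte transcripts (adjusted permutation p = 0.904 and 0.650). Relations within the groups were also taken without the 2 embryos farthest out on the burst genes. There r of Polr1c and Polr1e was 0.65 for both in control-generated embryos (adjusted permutation p = 0.0603 for both). In SER-generated embryos r was -0.22 and 0.16 (adjusted permutation p = 0.773 and 0.776). None of these passed, and the difference between control and SER was not tested. CPM values of one library share a total, so a list that takes more of the counts leaves less for the others, and the part of this in the relations was not tested.

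**Figure D4:**
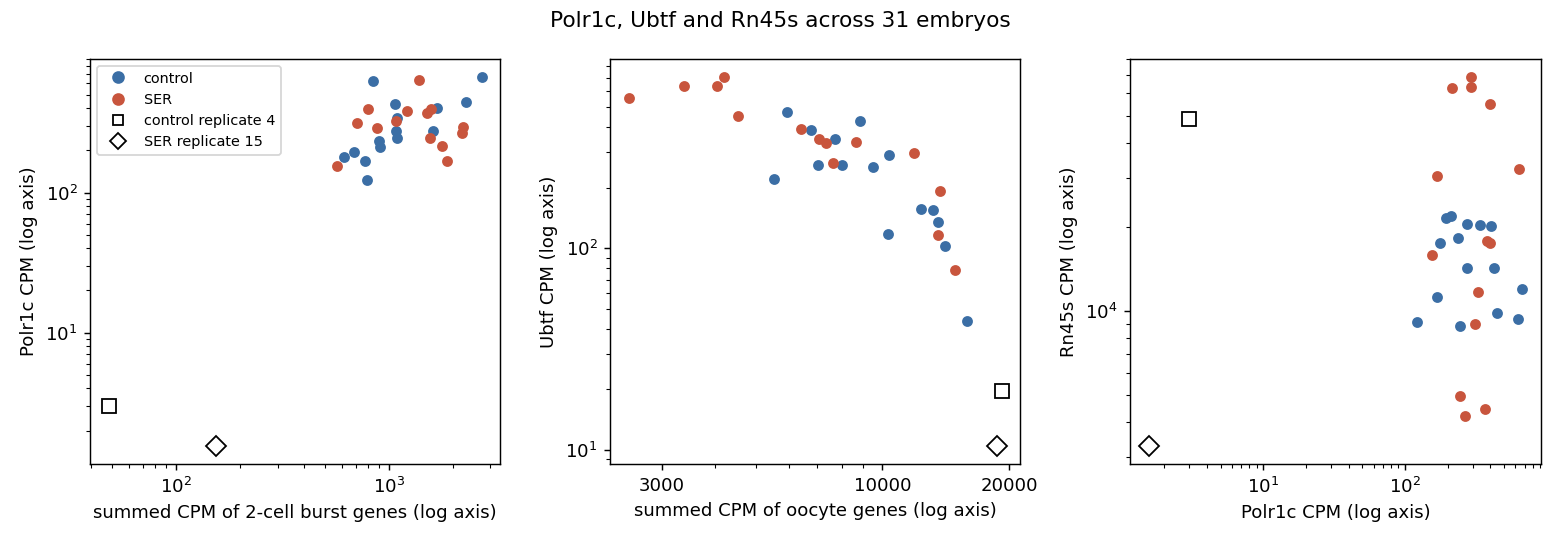
Polr1c against the summed 2-cell burst genes, Ubtf against the summed oocyte transcripts, and Rn45s against Polr1c, in CPM on log axes, with 1 point per embryo. The open symbols sit alone at low burst and low Polr1c, Ubtf falls along the oocyte sum (r = -0.89 on list means), and Rn45s spreads from 3300 to 68744 CPM with no trend along Polr1c (r = 0.08).

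Pairs of the 9 coding members had a median r of 0.53 over 31 embryos and 0.33 over 29, in 36 pairs that share genes and libraries. The pairs of Rn45s with the 9 had a median r of 0.12 and 0.35. The same medians for pairs of other tested genes are not given here.

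In the other genes of the pathway, no gene of any list was called in edgeR, as none was in the whole table. Of 17 further Pol I genes, mostly subunits, shared subunits and initiation factors, 8 were estimated higher and 9 lower with SER (median log2 fold change -0.09). The smallest p on each side belonged to Taf1a, a subunit of the Pol I selectivity factor (143.3 and 217.5 mean CPM in control and SER, log2 fold change 0.60, SE 0.27, adjusted p = 0.809, edgeR), and Polr2f, a subunit shared by all 3 polymerases (756.3 and 511.4 CPM, -0.64, SE 0.28, adjusted p = 0.809, edgeR). Of 16 tested regulators of ribosomal DNA, 13 were higher and 3 lower (median 0.23). Kdm2b, a histone demethylase, had the smallest p there, at 55.7 and 97.5 mean CPM (log2 fold change 0.74, adjusted p = 0.730, edgeR). The study reported Kdm2b as differentially expressed, using DESeq2 on counts corrected for batch, a correction that could not be made here. Phf6 had the smallest p among the lower ones (-0.44, adjusted p = 0.936, edgeR).

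Proteins of the box C/D and H/ACA particles, which guide methylation and pseudouridylation, were higher for 9 of 15 (median log2 fold change 0.14). Nop58 (0.39) and Nop10 (-0.53) had the smallest p on their sides. In 40S assembly 40 of 55 genes were higher (median 0.17), led by the helicase Ddx10 at 48.2 and 95.7 mean CPM (0.93, adjusted p = 0.730, edgeR), with Imp3 at -0.51. In 60S assembly 45 of 57 were higher (median 0.25), led by Nle1 at 52.9 and 102.8 mean CPM (0.97, adjusted p = 0.683, edgeR), with Bop1 at -0.39. Over all tested genes 4515 of 8571 were higher (52.7%, median 0.02). The stage markers leaned as well: 13 of 16 tested 2-cell burst genes were higher (median 0.19) and 11 of 16 oocyte transcripts lower (median -0.19), and their part in these counts was not tested.

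Of 22 exonucleases and exosome genes 15 were higher (median 0.12). Mphosph6, an exosome cofactor in 5.8S processing, had the smallest p of all these lists, at 3120 mean CPM in control-generated and 1744 in SER-generated embryos (log2 fold change -0.91, SE 0.27, adjusted p = 0.403, edgeR), and Dhx15 had 0.36. Of 15 other nucleolar proteins 6 were higher (median -0.04), with Nucks1 at -0.58 and Cdkn2aip at 0.35. The other polymerases were set beside Pol I. Of 8 Pol II-specific subunits 3 were higher (median -0.27), with Polr2j at -1.07 (adjusted p = 0.663, edgeR) and Polr2m at 0.49. Of 21 Pol III-specific genes 14 were higher (median 0.23), with Gtf3c1 at 0.72 (adjusted p = 0.730, edgeR) and Brf1 at -0.50.

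Few other RNA genes of the nucleolus and nucleus were captured. Of 22 listed, 12 were in the table and 6 were tested, none of them a product of Pol I or Pol III. Rn4.5s had no count in any embryo. Rmrp, the RNA of the RNase MRP that cuts the precursor, had 3 counts in all, and Rpph1, the RNA of RNase P, had 180 over 29 embryos with a median of 3.07 CPM. Malat1 ran highest of the tested ones, with a median of 89.9 CPM and a top value of 4307 CPM in 1 control-generated embryo. The log2 fold change of Malat1 was -1.64 (adjusted p = 0.731, edgeR), although 12 of 15 SER-generated embryos were above the control median. Its means were 345.0 CPM in control-generated embryos, with that top value included, and 106.6 CPM in SER-generated embryos. The fold change without that embryo is not given here.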

How the data were processed

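Single 2-cell embryos were profiled by Smart-seq3 with 19 cycles of cDNA amplification. Per the labels and the study's methods, the authors aligned reads to mm10 with STAR, removed duplicates (UMI-tools, Picard) and counted genes with featureCounts. Of the reads that carry a molecular tag (UMI), the study kept only those that mapped uniquely. Versions, the strand setting and, for the other, internal reads, the handling of reads that match several copies are not given in the sources used here. The deposited values are raw gene counts for 20544 genes in 31 embryos, not corrected for batch. The study corrected for batch before its own test, but the batch of each embryo is not given, so no batch term could be used. Without strand, reads of Polr1a and Ncl cannot be told apart from those of RNA genes that overlap their exons in the annotation.

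Groups were taken from the labels. The counts were scaled by TMM, filtered with filterByExpr (minimum count 10, minimum total 15; 8571 genes left) and tested with edgeR's quasi-likelihood test, with no covariates and Benjamini-Hochberg adjustment over all genes tested. The threshold was the adjusted p of 0.1 that the study used. SEs were computed from the fold change and the F statistic. Tools were R 4.3.3, edgeR 4.0.16, limma 3.58.1, DESeq2 1.42.0, sva 3.50.0, Python 3.11.15 and scipy 1.17.1. The edgeR fit was checked on simulated counts. Levels are CPM of the deposited totals. Relations used log2 CPM (TMM, prior count 2) with group means removed, and 100000 permutations within groups, two-sided, whose smallest p is 1e-05. They were adjusted over the 13 or 18 relations of their family. The relations of the coding members within the groups were adjusted over both groups together. Mitochondrially encoded genes were not in the table, so their planned relation was not computed. Poisson intervals cover counting error only.

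The members and gene lists were chosen with earlier results of these data known. Named were all 10 members, the 5 genes most and the 5 least correlated with Rn45s, and in each list the gene of smallest p on each side, with detected RNA genes. Alternatives covered scaling, filters, tools, covariates, thinning and leaving out embryos.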

Additional observations from a re-analysis of the deposited data

How the results depend on the processing

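Each member's fold change was computed under 46 alternatives, and of 460 values 431 kept their direction and side of the threshold, 28 turned and 1 passed it (Rrn3 in limma voom, which made 1 member called in place of 0). Thresholds, scalings, filters, thinning and DESeq2 turned no member. Rn45s was -0.088 with 5 surrogate variables and -0.026 with the replicate block. The correlation of same-numbered embryos was over 0.1 in 8 of 15 pairs (from -0.37 to 0.49) and 4 embryos correlated best with their own number, so the numbers were not taken to pair them. The block, which left out control replicate 16, gave 0 calls among the members, and Npm1 was 0.038. Polr1c was 0.39 in limma voom and 0.081 with surrogate variables. Npm1 was 0.54 in voom, 0.10 with surrogate variables and 0.087 in the permutation test. Ncl was -0.069 with the library total, -0.066 with detected genes, -0.11 with surrogate variables and -0.011 in the permutation test. The causes were not tested. Leaving out 1 embryo at a time, Rn45s ran from 0.42 to 0.82, Polr1c from -0.22 to 0.071, Ncl from -0.056 to 0.11, Fbl from -0.068 to 0.17 and Npm1 from -0.32 to 0.0067. Over the whole table, calls were 504 with no filter and 9 with surrogate variables.

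Of the 13 relations of Rn45s, 0 passed within control-generated embryos, and 2 (Npm1 and Polr1a) without the 2 farthest on each measure. With all 16, r turned for Polr1b (-0.36), Polr1c (-0.70), Polr1e (-0.38), Ubtf (-0.30), Ncl (-0.16), Fbl (-0.65), the burst genes (-0.62) and the oocyte transcripts (0.28). Without the 2 farthest, which for each of these measures include control replicate 4, they were -0.31, -0.075, 0.30, 0.50, 0.47, 0.31, 0.13 and -0.38 in the same order. Polr1b was -0.24 without 2 embryos. Rrn3, at -0.0035, was 0.0070 without centring, 0.048 with plain totals and 0.025 within SER-generated embryos. Counts of a few reads limit the low values of Polr1b, Polr1c, Polr1e and Fbl.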
